A study of Mus musculus with 11 samples.

Results

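Cholesterol and fatty acids are built from acetyl-CoA by pathways that share carbon supply and part of their transcriptional control, and the 34 genes described here cover both. They were taken by symbol from a list of sterol synthesis enzymes, their regulators and fatty acid synthesis enzymes, and their FPKM (fragments per kilobase of transcript, scaled to the number of fragments in the library) was summed per symbol. All 34 were among the 46469 symbols of the tables, and each was a single locus. For comparison they fall into a sterol branch of 18 enzymes, a fatty acid branch of 11 enzymes and 5 genes of sterol regulation and transport.

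The libraries came from mouse embryonic fibroblasts that differ in the number of intact Actb genes, which encode cytoplasmic β-actin. The 3 KO libraries (numbered 1, 3 and 4) are Actb -/-, the 4 Het libraries are Actb +/- and the 4 WT libraries are Actb +/+. All groups share the BALB/c strain, an origin in embryos of day 10.5, growth in high-glucose DMEM with 10% fetal bovine serum and antibiotics, and RNA extraction at 70% confluence followed by a stranded mRNA kit. The submitters' design text sets aside a further KO library for its quality, and it is not analysed here. The labels do not say whether replicates are separate embryos, cultures or lines, so the p-values measure the spread between these libraries, which may be technical. The serum is an outside source of sterol and lipid that was the same for every group by the labels.

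In animal cells, acetyl-CoA is condensed by the mevalonate arm into isoprenoid units and then into squalene, which is cyclised and trimmed to cholesterol. The transcription factors SREBP-1 and SREBP-2, encoded by Srebf1 and Srebf2, drive most of these genes. They leave the endoplasmic reticulum with their escort SCAP when sterol is scarce and are held there by INSIG proteins when it is plentiful. For fatty acids, ATP citrate lyase and acetyl-CoA synthetase supply acetyl-CoA, acetyl-CoA carboxylase and fatty acid synthase build palmitate, and elongases and desaturases extend and modify it. Fibroblasts in culture use both products for membranes.

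The promoters of 6 of the 34 genes are shown first, with examples of 4 kinds of response that the values below describe. RefSeq promoters (GRCm38.p6; 250 bases before to 50 after the gene start, printed along the gene) were found for 27 of the 34 genes. Capitals mark CCAAT, the box bound by NF-Y, which appears as ATTGG where it lies on the other strand, and the sterol regulatory element in the short form TCACNCC or the longer TCACNCCAC that contains it. Hmgcs1 (chr13:119690101-119690400, plus strand), Lss (chr10:76531355-76531654, plus strand) and Insig1 (chr5:28071162-28071461, plus strand) fell in KO and rose in Het. Idi1 (chr13:8885356-8885655, plus strand) fell in KO, and Hsd17b7 (chr1:169969156-169969455, minus strand) rose in both. Elovl6 (chr3:129532136-129532435, plus strand) of the fatty acid branch fell in both.
Hmgcs1: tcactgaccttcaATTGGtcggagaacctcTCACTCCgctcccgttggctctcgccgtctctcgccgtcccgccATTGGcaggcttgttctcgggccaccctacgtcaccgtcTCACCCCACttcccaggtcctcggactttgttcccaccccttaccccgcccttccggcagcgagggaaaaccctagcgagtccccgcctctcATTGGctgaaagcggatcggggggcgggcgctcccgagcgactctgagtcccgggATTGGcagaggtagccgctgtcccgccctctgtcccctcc
Lss: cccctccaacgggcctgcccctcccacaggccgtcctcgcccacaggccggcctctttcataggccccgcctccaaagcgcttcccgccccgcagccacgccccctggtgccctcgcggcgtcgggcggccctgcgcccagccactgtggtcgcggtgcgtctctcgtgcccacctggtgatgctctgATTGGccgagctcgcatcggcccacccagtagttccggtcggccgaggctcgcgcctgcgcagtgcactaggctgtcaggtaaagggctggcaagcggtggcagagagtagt
Insig1: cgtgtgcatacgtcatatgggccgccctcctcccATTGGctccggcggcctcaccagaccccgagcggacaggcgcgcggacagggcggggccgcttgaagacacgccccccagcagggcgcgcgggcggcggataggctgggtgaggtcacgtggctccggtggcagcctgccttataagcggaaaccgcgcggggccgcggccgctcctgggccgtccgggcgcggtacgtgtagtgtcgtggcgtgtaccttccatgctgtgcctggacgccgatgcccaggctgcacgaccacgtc
Idi1: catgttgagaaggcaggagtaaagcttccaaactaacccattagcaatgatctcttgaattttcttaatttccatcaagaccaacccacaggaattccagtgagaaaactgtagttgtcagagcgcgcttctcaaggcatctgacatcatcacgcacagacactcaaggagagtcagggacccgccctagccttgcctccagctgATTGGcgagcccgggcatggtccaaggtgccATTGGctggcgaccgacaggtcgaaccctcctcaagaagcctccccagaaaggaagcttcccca
Hsd17b7: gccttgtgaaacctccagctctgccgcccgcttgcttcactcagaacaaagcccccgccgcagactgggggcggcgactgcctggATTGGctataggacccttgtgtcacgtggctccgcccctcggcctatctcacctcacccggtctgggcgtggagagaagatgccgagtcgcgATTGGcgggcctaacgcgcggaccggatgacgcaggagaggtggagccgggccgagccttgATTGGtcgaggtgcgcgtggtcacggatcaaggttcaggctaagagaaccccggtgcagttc
Elovl6: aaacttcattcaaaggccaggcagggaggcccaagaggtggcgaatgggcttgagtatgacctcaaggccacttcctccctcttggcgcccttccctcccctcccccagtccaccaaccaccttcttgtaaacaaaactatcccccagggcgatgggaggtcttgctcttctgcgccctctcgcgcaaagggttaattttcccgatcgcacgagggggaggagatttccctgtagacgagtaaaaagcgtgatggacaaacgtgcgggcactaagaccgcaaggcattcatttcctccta

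Both strands were searched. CCAAT was present in 14 of the 15 sterol branch genes with a promoter, in 5 of the 8 fatty acid branch genes and in 22 of all 27 members, against 41.1% of the 27025 genes in the table (37.4% of its 32851 promoters). GGGCGG, the GC box bound by Sp1, was present in 14 of 15 sterol genes, 4 of 8 fatty acid genes and 22 of 27 members, against 38.2% of all genes. TCACNCC was present in 4 of the 27 members, 3 of them sterol genes, against 17.6% of all genes. The longer TCACNCCAC was present in 1, Hmgcs1, where it began at position -137 from the gene start, against 1.44% of all genes. Of the 6 printed promoters, Hmgcs1 held 4 copies of CCAAT, Hsd17b7 held 3, Idi1 held 2, Lss and Insig1 held 1 each and Elovl6 held none. Among the others, Mvk, which was not called against WT, held 5, and the fatty acid genes Fasn and Elovl5 held 3 and 2. A match describes letters in this window only. All 27 members passed the filter of 1 FPKM in at least 3 libraries, while the 27025 genes were not filtered by expression. The sets compared are thus unlike, and how common these letters are among expressed genes was not tested.

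Relative depth, read from the smallest FPKM steps, ran between 60.7% (WT 3) and 125% (WT 4) of WT 1, and for members at 10 FPKM or more the half-width of the Cufflinks interval had a median of 6.22% to 9.90% in a library. Actb averaged 45.8 ± 1.27 FPKM in KO (SD, n = 3), 837 ± 24.0 FPKM in Het (SD, n = 4) and 1325 ± 199.6 FPKM in WT (SD, n = 4), in the order of the labels, with no overlap between groups; reads counted in KO may come from near-identical actin genes. Of 10 fibroblast markers, all reached 1 FPKM in a KO library, 9 did in Het and 8 did in WT, where Thy1 was between 0 and 0.0991 FPKM and Pdgfra between 0.160 and 0.234 FPKM. Their sum was 3700.3 to 4382 FPKM in KO, 2451 to 2795 FPKM in Het and 1545 to 2055 FPKM in WT. Smooth muscle markers summed to 7355 to 8159 FPKM in KO, 239 to 256 FPKM in Het and 98.5 to 117 FPKM in WT. Acta2, itself an actin gene, made up most of this sum. It averaged 1787 FPKM over all libraries before scaling, against 247 FPKM for Tagln, the next marker. Of the 6 markers, 1 was under 1 FPKM in every KO library. The 9 adipocyte markers summed to 40.2 to 45.1 FPKM in KO, 5.03 to 6.91 FPKM in Het and 5.32 to 7.42 FPKM in WT, and all 3 that could be tested (Plin4, Pparg and Fabp4) rose in KO, while Adipoq and Plin1 stayed at or under 0.0985 FPKM and Cfd, Lep and Cidec were at 0 in every library. Libraries differed among themselves within every group along the GC content of transcripts, which is described with the genes it touches.

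All 34 genes passed the filter of 1 FPKM in at least 3 libraries. In WT the members ranged from 263 FPKM for the desaturase Scd2 to 4.41 FPKM for the sterol reductase Tm7sf2 (group means of scaled FPKM, a level per transcript length). Scd2, Acly and Fdps averaged 100 FPKM or more, and Dhcr7, Hsd17b7, Acss2 and Tm7sf2 averaged under 10 FPKM. Of the 33 neighbouring pairs in this order, 26 overlapped between WT libraries, so the order is coarse. Scd2 was also the highest member in KO and in Het.

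KO cells, with no intact Actb, had lower levels of most of these genes. Of the 34, 20 fell and 1, Hsd17b7, rose (limma, adjusted p under 0.05), against 23.8% of all 14948 tested genes that fell and 23.3% that rose (47.1% in either direction). The falls covered 11 of 18 sterol enzymes and 8 of 11 fatty acid enzymes. The median difference of the members was -0.26 on the log2(FPKM + 1) scale, against 0.01 for all genes tested; this scale, used for every difference here, understates the change of low genes. In 18 members every KO library lay below every WT library and in 1 every KO library lay above, against 23.6% and 22.8% of all genes. In bulk RNA, fewer cells of a type and less RNA per cell cannot be told apart.

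Het cells, with 1 intact Actb gene, went the other way in the sterol branch. Of the 34 genes, 15 rose and 4 fell relative to WT, against 21.7% and 22.1% of all genes (43.8% in either direction). The risers were 11 sterol enzymes, Insig1, Stard4 and 2 fatty acid genes (Acly and Scd2), and the 4 that fell (Me1, Fads1, Acaca and Elovl6) were all fatty acid genes. Of the 11 sterol enzymes, 2 were of the mevalonate arm and 9 of the steps from squalene to cholesterol. The median difference was 0.20 over the members, 0.41 over the sterol branch and -0.05 over the fatty acid branch, against 0.01 for all genes. Het libraries lay wholly above WT libraries in 15 members and wholly below in 3, against 19.4% and 20% of all genes. With upper-quartile scaling 11 members rose, since Nsdhl, Ebp, Acly and Scd2 missed the threshold. Fewer of all genes rose under it too, at 2565 of 14946 against 3243 of 14948 in the main fit.

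Set directly against each other, KO and Het differed in 25 of the 34 genes. In KO 23 members were lower than in Het and 2, Me1 and Fads1, were higher, against 22.2% and 22% of all genes (44.2% in either direction). Of the sterol branch, 15 of 18 genes were lower and the other 3 were not called, with a median difference of -0.74. All KO libraries lay below all Het libraries in 25 members and above in 4, against 26.7% and 27.2% of all genes. Het was set against the midpoint of KO and WT as well. Here 24 members were higher in Het and 3 lower, against 21.3% and 22.8% of all genes (44% in either direction), and the 24 included 16 of 18 sterol genes and 6 of 11 fatty acid genes. The comparisons of KO and of Het with WT share the WT libraries, and those with Het share the Het libraries.

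In 10 members the level both rose in Het and fell in KO: Hmgcs1, Fdps, Fdft1, Sqle, Lss, Nsdhl, Ebp, Dhcr7, Insig1 and Acly. Of all genes, 2.42% (362 genes) did so. In the same 10 every Het library lay above every WT library and every WT library above every KO library, against 2.42% (361) of all genes. Another 4 (Me1, Acaca, Elovl6 and Fads1) fell in both KO and Het, and Hsd17b7 rose in both. In 9 members neither comparison with WT was called. The shares of all genes that fell in both, rose in both or were called in neither are not reported here. These last counts therefore describe the members only.

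**Figure D1:**
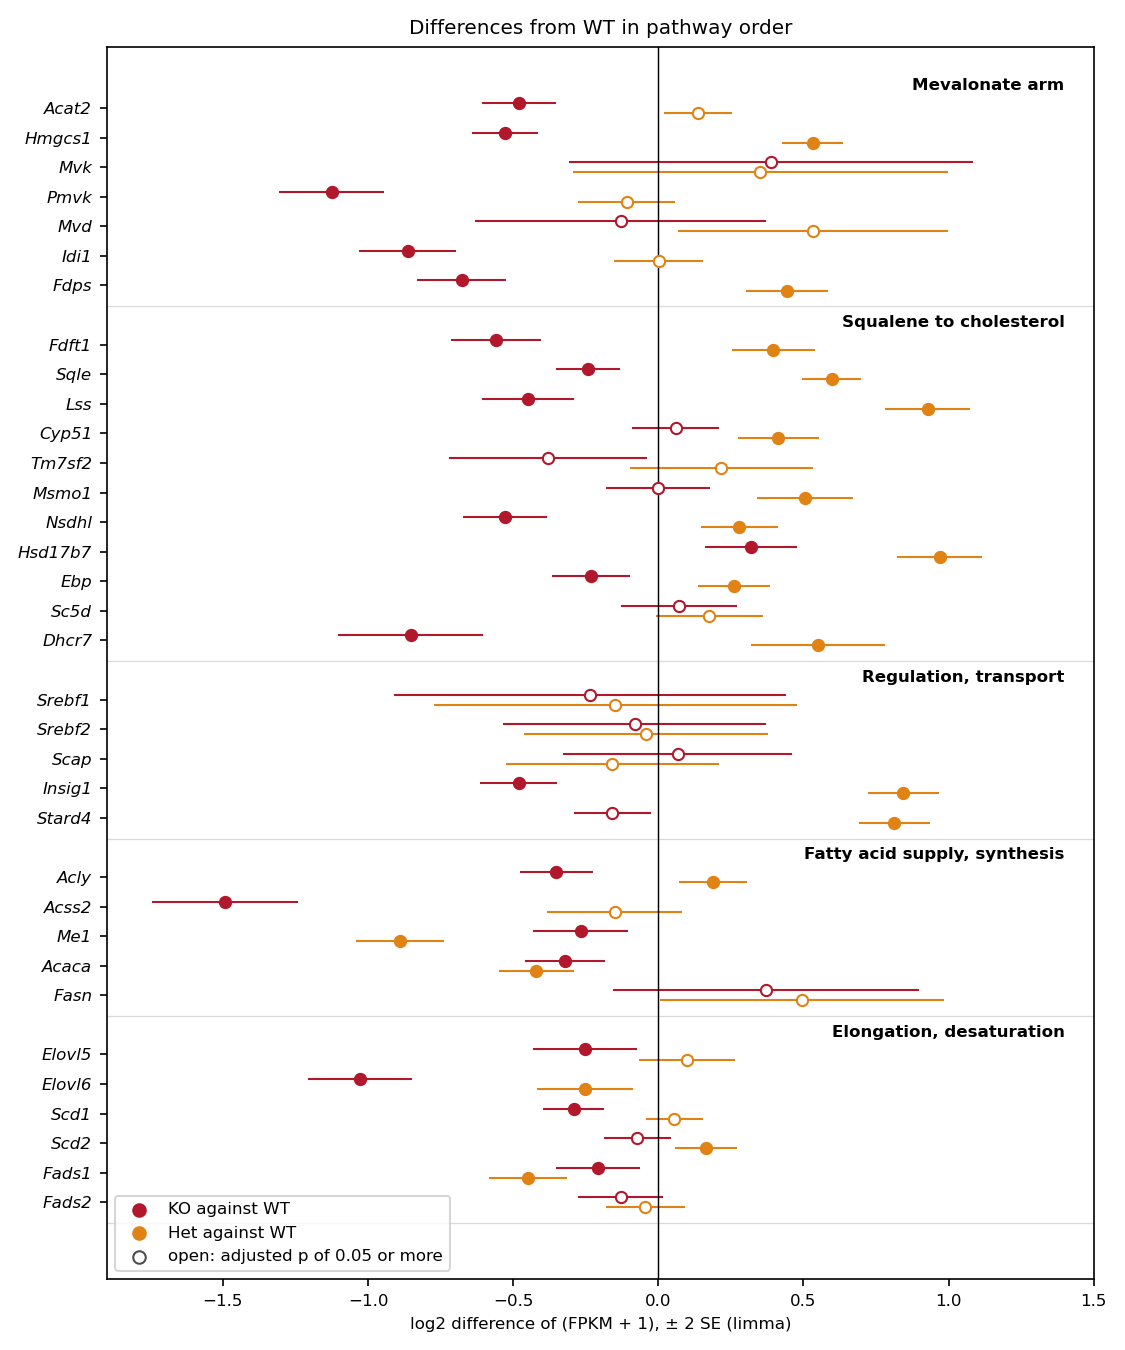
Differences on the log2(FPKM + 1) scale for the 34 genes in pathway order, KO against WT in red and Het against WT in orange, with bars of ± 2 SE from limma. Filled points have an adjusted p under 0.05. In the sterol rows most orange points lie right of 0 and most red points left of it, while Me1, Acaca, Elovl6 and Fads1 have both points left of 0.

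The mevalonate arm opens with Acat2, the cytosolic thiolase that joins acetyl-CoA units (gene39183, chromosome 17, 12943042 to 12960725). It had 61.5, 55.7 and 52.9 FPKM in KO, 90.4, 90.1, 86.1 and 82.8 FPKM in Het, and 83.3, 79.5, 79.1 and 75.4 FPKM in WT. KO libraries were all below WT, while Het and WT overlapped. Acat2 fell in KO (-0.48 ± 0.06, adjusted p = 1.02e-04) and was not called in Het (0.14, adjusted p = 0.0815). It was called higher in Het without scaling (adjusted p = 0.0328), with a replicate block (0.0292) and with the GC correction described below (0.0280). Hmgcs1, the cytosolic HMG-CoA synthase (gene33807, chromosome 13, 119690351 to 119708260), had 40.0, 37.6 and 37.3 FPKM in KO, 79.2, 84.3, 84.0 and 76.2 FPKM in Het, and 57.9, 55.1, 56.6 and 53.0 FPKM in WT. The groups did not overlap, with Het highest and KO lowest. Its level was 0.473 times as high in KO as in Het by group means, and it fell in KO (-0.53 ± 0.06, adjusted p = 2.20e-05) and rose in Het (0.53 ± 0.05, adjusted p = 1.54e-05).

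Pmvk, which adds the next phosphate to phosphomevalonate (gene7317, chromosome 3, 89454546 to 89469014), had 20.4, 22.0 and 23.3 FPKM in KO, 44.9, 46.2, 44.3 and 45.7 FPKM in Het, and 42.8, 53.4, 44.9 and 55.8 FPKM in WT. All KO libraries were at about the same low level, and Het lay inside the range of WT. Its KO difference was -1.13 ± 0.09, adjusted p = 2.50e-06. Idi1, which interconverts the isoprenoid units (gene31746, chromosome 13, 8885606 to 8892396), had 18.6, 19.99 and 19.7 FPKM in KO, 35.9, 38.9, 36.3 and 33.9 FPKM in Het, and 39.3, 35.4, 39.4 and 31.2 FPKM in WT. It was lower in all KO libraries and overlapped between Het and WT, with differences from WT of -0.86 ± 0.08, adjusted p = 1.04e-05 in KO and of 0.00 (interval -0.15 to 0.16, ± 2 SE) in Het. Fdps, which makes farnesyl diphosphate (gene7281, chromosome 3, 89093588 to 89101967), was the most abundant sterol gene and had 63.7, 62.2 and 60.2 FPKM in KO, 132, 142, 135 and 135 FPKM in Het, and 98.7, 90.7, 116 and 95.4 FPKM in WT. The lowest Het library exceeded the highest WT library, and all KO libraries were below both groups. Fdps rose in Het (0.44 ± 0.07, adjusted p = 5.08e-04) and fell in KO (-0.68 ± 0.08, adjusted p = 3.40e-05).

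The kinase Mvk and the decarboxylase Mvd were not called against WT and were the most variable of the arm. Mvk had 18.8, 23.1 and 31.3 FPKM in KO, 19.9, 20.1, 26.6 and 27.5 FPKM in Het, and 11.1, 23.2, 11.4 and 34.8 FPKM in WT, and its groups overlapped throughout. Mvd had 13.5, 17.1 and 19.4 FPKM in KO, 24.4, 24.7, 26.7 and 31.3 FPKM in Het, and 12.4, 21.4, 13.6 and 29.4 FPKM in WT. For Mvd every KO library was below every Het library (difference -0.66 ± 0.25, adjusted p = 0.0525), while WT ranged from below the KO libraries to above all Het libraries but Het 4. The difference between KO and Het passed the threshold without scaling (adjusted p = 0.0342), with upper-quartile scaling (0.0380), with a pseudocount of 5 (0.0495), with only KO and Het in the fit (0.00251), and without WT 1, WT 3 or WT 4 (0.0283, 0.0460 and 0.0112). Without WT 4, Mvd was also called higher in Het than in WT (0.75, adjusted p = 0.00605). Of the 7 genes of the arm, 5 fell in KO (71.4%) and 2 rose in Het (28.6%), and the others were not called. Of all genes, 23.8% fell in KO and 21.7% rose in Het, so the share of the arm that rose in Het was near that of all genes.

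Of the squalene to cholesterol steps, 9 of 11 genes rose in Het (81.8%), against 21.7% of all genes, and the other 2 were not called. Fdft1, the squalene synthase (gene35297, chromosome 14, 63145150 to 63179655), had 36.4, 32.0 and 28.9 FPKM in KO, 63.8, 62.9, 66.2 and 61.6 FPKM in Het, and 49.8, 46.2, 51.4 and 45.1 FPKM in WT. Sqle, the squalene epoxidase (gene36534, chromosome 15, 59315092 to 59331193), had 52.4, 49.9 and 54.2 FPKM in KO, 91.4, 97.6, 96.9 and 90.9 FPKM in Het, and 60.8, 62.3, 65.4 and 59.2 FPKM in WT. In both genes the groups were separate, with Het highest. Sqle rose by 0.60 ± 0.05 in Het (adjusted p = 5.10e-06), and fell in KO (-0.24 ± 0.05, adjusted p = 0.00376). Fdft1 differed by 0.40 in Het (adjusted p = 0.00114) and by -0.56 in KO (adjusted p = 1.48e-04).

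Lss, the lanosterol synthase that closes the sterol rings (gene25661, chromosome 10, 76531565 to 76557139), had 13.4, 12.1 and 12.1 FPKM in KO, 33.6, 35.1, 36.5 and 31.7 FPKM in Het, and 15.6, 19.3, 17.1 and 18.1 FPKM in WT. Its mean in Het was 1.95 times that in WT, and every KO library was below every WT library. The differences were 0.93 ± 0.07, adjusted p = 3.08e-06 in Het and -0.45 ± 0.08, adjusted p = 7.99e-04 in KO. Hsd17b7, the ketone reductase of sterol demethylation (gene2171, chromosome 1, 169949535 to 169969238), was the member with the largest rise in Het and the only 1 of the 34 called higher in KO. It had 8.59, 8.82 and 8.79 FPKM in KO, 15.3, 14.4, 13.9 and 13.5 FPKM in Het, and 7.24, 6.95, 7.30 and 5.81 FPKM in WT. The KO libraries lay just above the WT range and well below Het. Its mean was 2.09 times the WT mean in Het (0.97 ± 0.07, adjusted p = 2.28e-06) and 1.28 times in KO (0.32 ± 0.08, adjusted p = 0.00679).

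Nsdhl, the sterol dehydrogenase of the same demethylation complex (gene44599, chromosome X, 72918521 to 72958528), had 22.9, 22.7 and 24.8 FPKM in KO, 39.7, 45.0, 42.9 and 39.9 FPKM in Het, and 37.0, 32.9, 36.0 and 31.5 FPKM in WT. Dhcr7, the reductase of the last step to cholesterol (gene20127, chromosome 7, 143823167 to 143848410), had 5.40, 3.76 and 4.97 FPKM in KO, 11.5, 14.3, 16.9 and 13.8 FPKM in Het, and 8.94, 9.58, 9.16 and 9.27 FPKM in WT. Both were lowest in every KO library and highest in every Het library. Dhcr7 showed the largest gap between KO and Het of all members on the log2(FPKM + 1) scale (-1.40 ± 0.12, adjusted p = 6.35e-06), with a KO mean 0.334 times the Het mean; by this ratio of means Acss2 had the larger gap (0.272). Nsdhl differed from WT by -0.53 in KO (adjusted p = 1.32e-04) and by 0.28 in Het (adjusted p = 0.00611).

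Of the remaining steps, the demethylase Cyp51 averaged 35.8 ± 0.461 FPKM in KO, 46.1 ± 2.18 in Het and 34.4 ± 3.45 in WT (SD, n = 3, 4 and 4), and the methylsterol oxidase Msmo1 averaged 57.6 ± 3.11 FPKM in KO, 82.2 ± 3.86 in Het and 57.9 ± 7.15 in WT. Both rose in Het (0.41 and 0.51, adjusted p = 7.35e-04 and 6.14e-04) and neither was called in KO, where their intervals were -0.09 to 0.21 and -0.18 to 0.18. The isomerase Ebp averaged 24.1 ± 1.84 FPKM in KO, 34.3 ± 1.56 in Het and 28.5 ± 1.43 in WT, with a rise in Het (0.26 ± 0.06, adjusted p = 0.00555) and a fall in KO (-0.23 ± 0.07, adjusted p = 0.0145); without KO 3 its KO difference was -0.18 (adjusted p = 0.0765). The desaturase Sc5d averaged 23.9 ± 0.144 FPKM in KO, 25.9 ± 1.21 in Het and 22.9 ± 3.51 in WT and was called in no comparison of the main fit. With the GC correction described below, Sc5d was called higher in Het than in WT (0.20, adjusted p = 0.0167). The reductase Tm7sf2 averaged 3.14 ± 0.660 FPKM in KO, 5.27 ± 1.04 in Het and 4.41 ± 0.921 in WT and was called lower in KO than in Het (-0.60 ± 0.17, adjusted p = 0.0146), a call lost without KO 1 (adjusted p = 0.0680). Its difference of KO from WT (-0.38 ± 0.17, adjusted p = 0.0893) was called without WT 1 (-0.50, adjusted p = 0.0244) and with upper-quartile scaling (adjusted p = 0.0453).

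**Figure D2:**
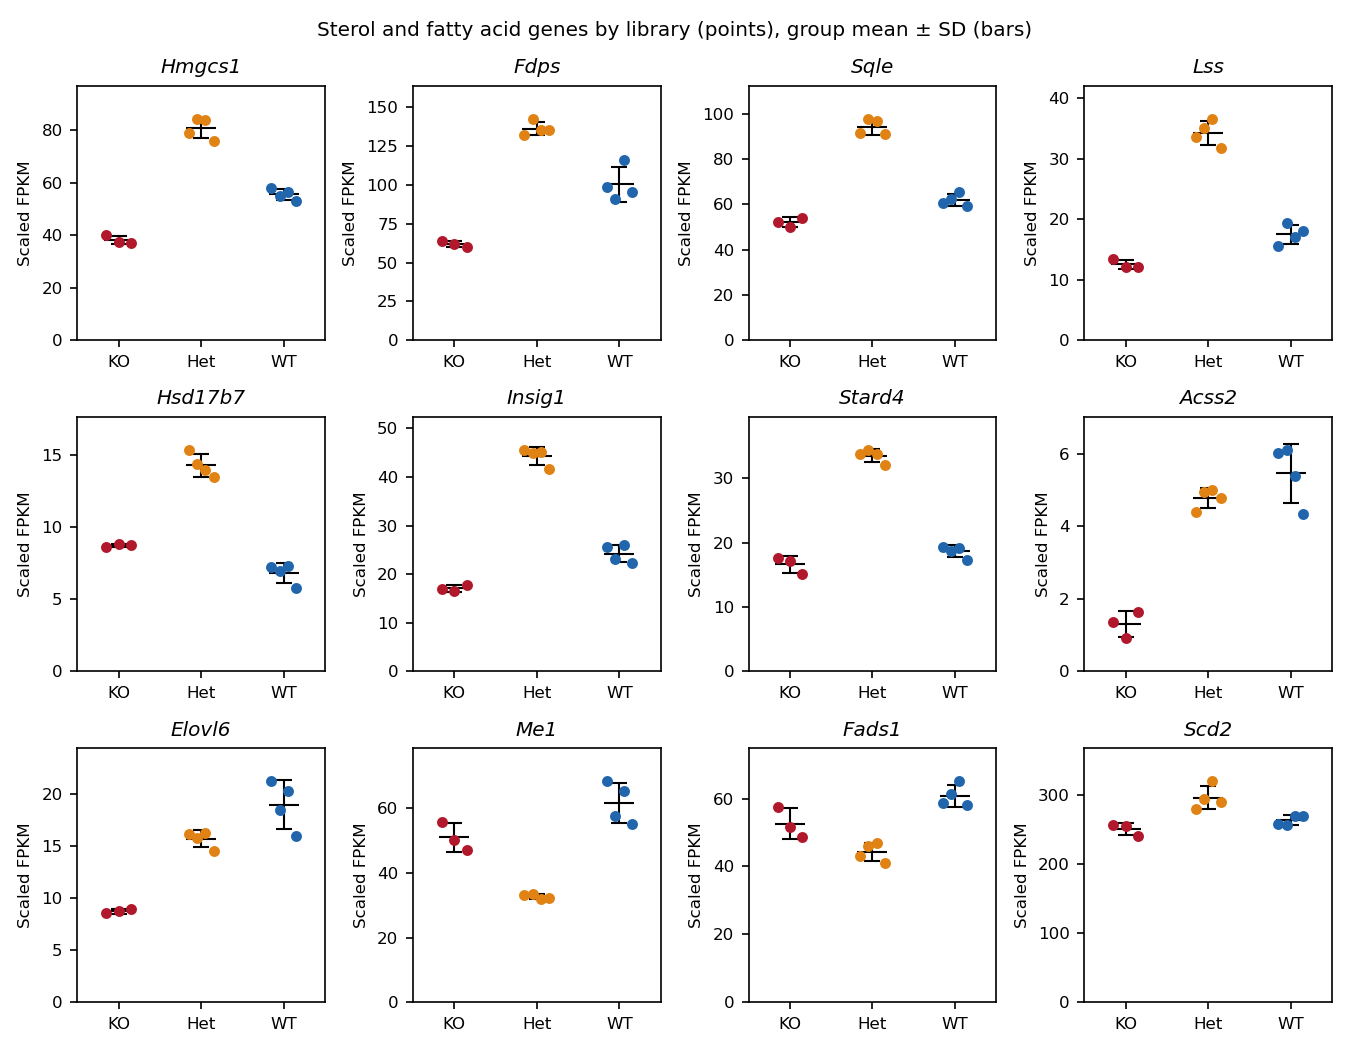
Scaled FPKM (linear axes from 0) of 12 of the genes in each library, with group mean and SD as bars, for KO, Het and WT from left to right. Hmgcs1, Fdps, Sqle, Lss and Insig1 are highest in Het and lowest in KO without overlap, Me1 and Fads1 are lowest in Het, and Acss2 and Elovl6 are lowest in KO.

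Insig1, which holds the SREBP escort in the endoplasmic reticulum and is itself induced by SREBP (gene11559, chromosome 5, 28071412 to 28078662), had 16.9, 16.5 and 17.8 FPKM in KO, 45.5, 44.8, 45.1 and 41.6 FPKM in Het, and 25.5, 23.2, 26.0 and 22.3 FPKM in WT. The groups were far apart relative to their spread, with the Het mean at 1.83 times and the KO mean at 0.704 times the WT mean. The differences were 0.84 ± 0.06, adjusted p = 1.62e-06 in Het and -0.48 ± 0.07, adjusted p = 1.33e-04 in KO. Stard4, a carrier that moves sterol between membranes, had 17.6, 17.2 and 15.1 FPKM in KO, 33.9, 34.4, 33.8 and 32.1 FPKM in Het, and 19.3, 18.8, 19.2 and 17.4 FPKM in WT. Het libraries were all above WT, and KO overlapped WT. Stard4 rose in Het (0.81 ± 0.06, adjusted p = 2.12e-06), and its KO difference of -0.16 (adjusted p = 0.0697) missed the threshold but passed it without WT 4 (-0.20, adjusted p = 0.0268), without scaling (-0.25, adjusted p = 0.00363) and with upper-quartile scaling (-0.22, adjusted p = 0.0451).

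The transcripts of the SREBPs and of their escort were not called in any comparison, and their WT libraries were widely spread. Srebf2, which encodes the SREBP mainly tied to sterol genes (gene37013, chromosome 15, 82147269 to 82205379), had 33.7, 39.1 and 46.6 FPKM in KO, 36.6, 35.5, 46.6 and 44.5 FPKM in Het, and 30.4, 43.6, 34.7 and 66.1 FPKM in WT. Srebf1, whose products act more on fatty acid genes (gene27774, chromosome 11, 60199089 to 60222686), had 9.19, 11.6 and 16.5 FPKM in KO, 12.1, 10.5, 14.2 and 15.3 FPKM in Het, and 8.52, 16.7, 10.4 and 28.4 FPKM in WT. Scap (gene24401, chromosome 9, 110333288 to 110384949) had 13.8, 14.1 and 17.1 FPKM in KO, 12.1, 11.6, 13.4 and 13.5 FPKM in Het, and 10.4, 16.4, 11.3 and 21.0 FPKM in WT. In all 3 genes WT 1 was the lowest and WT 4 the highest WT library, and all KO and Het libraries lay between them. The intervals of the KO difference were -0.54 to 0.37 for Srebf2, -0.91 to 0.44 for Srebf1 and -0.33 to 0.46 for Scap, and differences within these intervals were not detectable at this spread. SREBP activity depends on processing of the protein, which was not measured.

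The spread among WT libraries followed the base composition of the transcripts. In 7 members the highest WT library exceeded the lowest by more than 1.5 times: Srebf1 (3.34), Mvk (3.13), Fasn (2.46), Mvd (2.37), Srebf2 (2.18), Scap (2.02) and Tm7sf2 (1.69). WT 1 was lowest in all 7, and WT 4 was highest in all but Tm7sf2. Their longest transcripts had a median GC content of 57.9%, against 48.2% in the other members, whose median ratio was 1.17. Across the 32 members averaging 5 FPKM or more, the deviation of a library from the mean of the other libraries of its group correlated with GC content in WT 4 (Pearson r = 0.84), WT 2 (0.72), WT 3 (-0.79) and WT 1 (-0.85). The same r was -0.52, -0.26 and 0.63 in KO 1, KO 3 and KO 4, and -0.59, -0.75, 0.50 and 0.79 in Het 1 to Het 4. Over the 9580 genes at that level it had the same signs and was smaller in size. There it was 0.54, 0.25, -0.31 and -0.54 in WT 4, WT 2, WT 3 and WT 1. It was -0.25, -0.03 and 0.30 in KO 1, KO 3 and KO 4, and -0.08, -0.27, 0.16 and 0.24 in Het 1 to Het 4. These are descriptions over genes of 1 library. A GC correction was chosen with the data in view. It took from each library a smooth curve, on GC content, of its deviation from the mean of all 11 libraries. Differences between groups that follow GC content can thus be changed by it too. After it, Mvd was called lower in KO than in WT (-0.39) and higher in Het than in WT (0.41). Mvd was also called lower in KO than in Het (-0.80). Srebf1 (-0.47), Srebf2 (-0.30) and Scap (-0.20) were called lower in KO than in WT. Without WT 2 and WT 4 instead, Scap was called higher in KO (0.42). Mvk and Fasn were then called higher in KO (1.01 and 0.85) and in Het (0.97 and 0.97). WT 1 and WT 3 lay below the KO mean for Srebf1 (8.52 and 10.4 against 12.4 FPKM). The same held for Srebf2 (30.4 and 34.7 against 39.8 FPKM) and Mvd (12.4 and 13.6 against 16.7 FPKM). No direction in KO against WT is therefore given for Scap, Srebf1, Srebf2 or Mvd. With the GC correction and without WT 2 and WT 4, the members lower in KO numbered 25 and 21, and those higher in Het 19 and 17. Of all genes, 4301 of 14948 and 4079 of 14681 were lower in KO, and 3796 and 3870 were higher in Het. The main fit had 3561 of 14948 genes lower in KO and 3243 higher in Het.

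**Figure D3:**
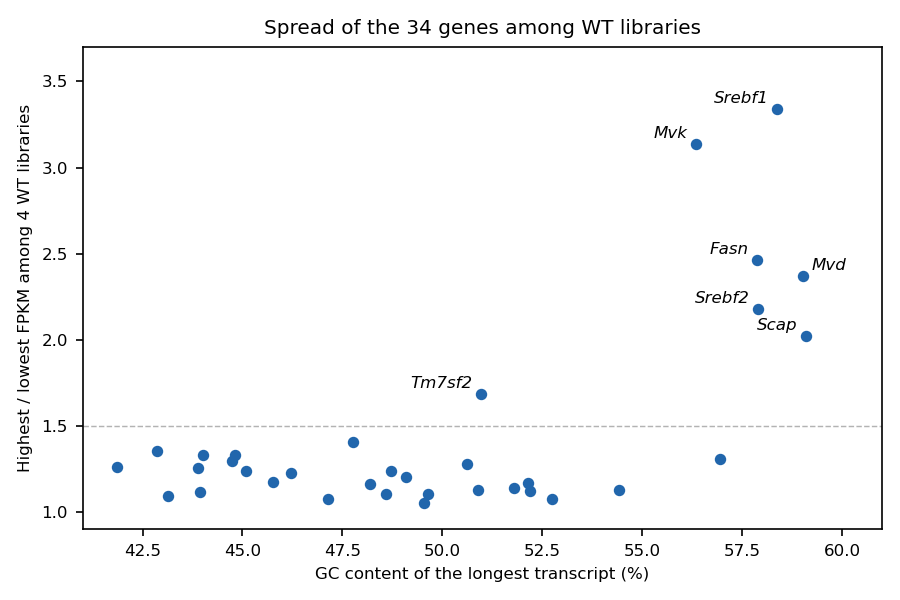
Ratio of the highest to the lowest of the 4 WT libraries (vertical axis) against GC content of the longest transcript in percent (horizontal axis), 1 point per gene for the 34 genes. The 7 labelled genes lie above the dashed line at 1.5, and 6 of them lie at the GC-rich end.

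Among the genes that supply and build fatty acids, Acss2 fell most. Acss2, the acetyl-CoA synthetase that uses acetate (gene5605, chromosome 2, 155517953 to 155562746), had 1.36, 0.918 and 1.63 FPKM in KO, 4.40, 4.96, 5.02 and 4.78 FPKM in Het, and 6.02, 6.10, 5.39 and 4.34 FPKM in WT. All KO libraries were far below the rest, and Het overlapped WT. Its KO mean was 0.238 times the WT mean (-1.49 ± 0.13, adjusted p = 3.82e-06), the largest fall of any member in KO. Acly, the ATP citrate lyase (gene29032, chromosome 11, 100476352 to 100528000), had 85.8, 89.0 and 88.2 FPKM in KO, 125, 127, 136 and 125 FPKM in Het, and 102, 118, 111 and 119 FPKM in WT. It was the only fatty acid gene with Het wholly above and KO wholly below WT, with differences of 0.19 (adjusted p = 0.0223) and -0.35 (adjusted p = 8.81e-04). The rise in Het was lost without Het 3 (adjusted p = 0.0692) and without WT 3 (adjusted p = 0.0502).

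Me1, the cytosolic malic enzyme that makes NADPH (gene23930, chromosome 9, 86581363 to 86695914), had 55.8, 50.1 and 47.2 FPKM in KO, 33.1, 33.4, 31.8 and 32.4 FPKM in Het, and 68.4, 57.8, 65.4 and 55.2 FPKM in WT. Het was lowest by a wide margin, and KO overlapped WT. Me1 fell in Het (-0.89 ± 0.08, adjusted p = 5.26e-06), which was the largest fall of any member there, and its level was higher in KO than in Het (0.62 ± 0.08, adjusted p = 1.09e-04). Its smaller fall in KO against WT (-0.27 ± 0.08, adjusted p = 0.0199) was lost without KO 3, without KO 4 or without WT 3 (adjusted p = 0.0650, 0.0886 and 0.0537). Acaca, the acetyl-CoA carboxylase (gene28553, chromosome 11, 84129677 to 84401651), had 16.1, 14.7 and 14.4 FPKM in KO, 14.3, 13.9, 14.1 and 13.7 FPKM in Het, and 20.9, 19.6, 18.6 and 17.3 FPKM in WT. KO and Het both lay below WT and close to each other, with differences from WT of -0.32 and -0.42 (adjusted p = 0.00285 and 3.69e-04).

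Fasn, the fatty acid synthase, averaged 47.7 ± 7.58 FPKM in KO, 51.9 ± 6.66 in Het and 38.7 ± 16.0 in WT (SD, n = 3, 4 and 4). It was not called in either comparison with WT, where the intervals were -0.16 to 0.90 in KO and 0.01 to 0.98 in Het. Fasn is among the GC-rich genes with a wide WT spread. Without WT 4, the highest WT library for this gene, it was called higher in KO (0.59, adjusted p = 0.0396) and in Het (0.71, adjusted p = 0.0137). With the GC correction it was called higher in Het (0.39, adjusted p = 0.00940) but not in KO.

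Of the elongases, Elovl6, which extends saturated and monounsaturated chains (gene8149, chromosome 3, 129532386 to 129638495), had 8.52, 8.72 and 8.97 FPKM in KO, 16.2, 15.8, 16.2 and 14.5 FPKM in Het, and 21.2, 18.4, 20.2 and 15.9 FPKM in WT. KO was less than any Het or WT library, and Het overlapped the lowest WT library. It fell in KO (-1.03 ± 0.09, adjusted p = 4.75e-06) and less in Het (-0.25 ± 0.08, adjusted p = 0.0296), the Het call being lost without any 1 of Het 2, Het 4, WT 1, WT 2 or WT 3 (adjusted p between 0.0508 and 0.0849). Elovl5, which extends polyunsaturated chains, averaged 34.3 ± 1.60 FPKM in KO, 44.0 ± 2.07 in Het and 41.3 ± 5.14 in WT. Its fall in KO (-0.25 ± 0.09, adjusted p = 0.0379) was lost without any 1 of KO 1, KO 3, KO 4, Het 1, Het 2, WT 1 or WT 3 (adjusted p up to 0.116).

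Scd2, a stearoyl-CoA desaturase (gene43328, chromosome 19, 44293676 to 44306864), had 257, 254 and 240.2 FPKM in KO, 279, 294, 319 and 289.5 FPKM in Het, and 258, 256, 269.6 and 269 FPKM in WT. Het lay above WT, and KO and WT overlapped. It rose in Het (0.16 ± 0.05, adjusted p = 0.0280), a call lost without any 1 of Het 2, Het 3, WT 1 or WT 2 (adjusted p between 0.0503 and 0.0813). Scd1 averaged 39.3 ± 0.955 FPKM in KO, 50.3 ± 2.48 in Het and 48.3 ± 1.48 in WT and fell in KO (-0.29 ± 0.05, adjusted p = 9.89e-04). The Scd genes are close copies, and how reads were shared among them is uncertain.

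Fads1, a desaturase of polyunsaturated fatty acids (gene42652, chromosome 19, 10182888 to 10196874), had 57.5, 51.6 and 48.6 FPKM in KO, 43.2, 46.0, 46.8 and 41.1 FPKM in Het, and 58.6, 61.3, 65.1 and 58.1 FPKM in WT. WT was highest and Het lowest, without overlap of either with KO. It fell in Het (-0.45 ± 0.07, adjusted p = 3.12e-04) and in KO (-0.21 ± 0.07, adjusted p = 0.0355), but the KO call was lost without any 1 of KO 3, KO 4, WT 2 or WT 3 (adjusted p between 0.0667 and 0.149). The higher level in KO than in Het (0.24 ± 0.07, adjusted p = 0.0187) was lost without KO 1 (adjusted p = 0.0904) and without Het 4 (adjusted p = 0.0524). Its neighbour in function, Fads2, averaged 61.8 ± 3.55 FPKM in KO, 65.7 ± 5.47 in Het and 67.7 ± 3.67 in WT and was called in no comparison of the main fit. Fads2 was called lower in KO than in WT without scaling (-0.23, adjusted p = 0.0332), with upper-quartile scaling (-0.20, adjusted p = 0.0369) and with the GC correction (-0.24, adjusted p = 0.0183).

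Set against each other, the branches separated in Het and less so in KO. The sterol branch summed to 518 ± 8.17 FPKM in KO, 892 ± 21.8 FPKM in Het and 686 ± 15.2 FPKM in WT (SD, n = 3, 4 and 4), with no overlap between groups. The fatty acid branch, to which Scd2 contributes most, summed to 649.9 ± 5.23 FPKM in KO, 747 ± 36.2 FPKM in Het and 738 ± 17.3 FPKM in WT. Its KO libraries lay below the others, while Het and WT overlapped.

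Per library, the median over the 18 sterol genes of the difference from the WT mean was -0.38, -0.41 and -0.34 in KO, 0.35, 0.41, 0.45 and 0.39 in Het, and between -0.07 and 0.07 in WT. Over the 11 fatty acid genes it was -0.23, -0.29 and -0.32 in KO, -0.08, -0.11, 0.12 and -0.08 in Het, and between -0.06 and 0.03 in WT. Every library of each group was thus on the same side of WT in the sterol branch, and Het straddled WT in the fatty acid branch. The fitted sterol median minus the fatty acid median was 0.45 in Het against WT, -0.50 in KO against Het and -0.15 in KO against WT, given as descriptions with no test. In KO against WT this gap rested on the libraries used: it was -0.25 without WT 1, -0.071 without WT 4, -0.09 without KO 1 and -0.10 without WT 2. Branch means gave almost no gap in KO, at -0.35 for sterol genes and -0.37 for fatty acid genes.

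**Figure D4:**
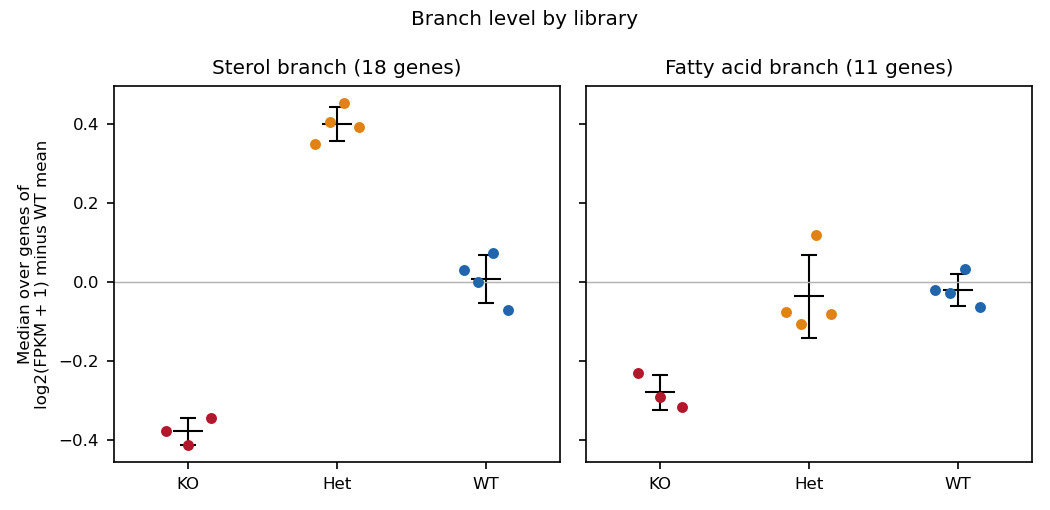
Median over the genes of a branch of log2(FPKM + 1) minus the WT mean (vertical axis), by library, for KO, Het and WT from left to right, with group mean and SD as bars. Sterol medians lie between 0.35 and 0.45 in Het and between -0.41 and -0.34 in KO, and fatty acid medians lie between -0.11 and 0.12 in Het.

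Other genes of the same pathways were read from 5 lists set out with the members, and their counts stand against the shares of all genes given above, 23.3% that rose and 23.8% that fell in KO, and 21.7% and 22.1% in Het. Of 13 other sterol and isoprenoid genes that passed the filter, 2 rose (15.4%) and 5 fell (38.5%) in KO and 0 rose and 2 fell (15.4%) in Het (limma); without the adjustment for many genes, 1 of the 13, Aacs, had p under 0.05 with a higher level in Het. Por, the reductase that feeds electrons to sterol enzymes, averaged 59.8 ± 9.70 FPKM in KO, 30.0 ± 4.29 in Het and 33.6 ± 11.8 in WT and rose in KO (0.86 ± 0.22, adjusted p = 0.00895). Its WT spread was wide, with WT 1 lowest (22.8 FPKM) and WT 4 highest (49.8 FPKM), as in the GC-rich members. The lowest KO library, at 50.6 FPKM, was just above WT 4. Acat1, the mitochondrial thiolase, averaged 24.7 ± 1.33 FPKM in KO, 28.8 ± 1.52 in Het and 36.1 ± 3.76 in WT and fell in KO (-0.53 ± 0.08, adjusted p = 3.50e-04). Of 13 other genes of SREBP control, 2 rose (15.4%) and 6 fell (46.2%) in KO and 1 rose (7.69%) and 4 fell (30.8%) in Het. Mbtps2, a protease that releases SREBP, averaged 6.90 ± 0.424 FPKM in KO, 12.3 ± 0.361 in Het and 12.2 ± 1.91 in WT and fell in KO (-0.73 ± 0.11, adjusted p = 2.12e-04). Faf2, a factor of protein degradation at the endoplasmic reticulum, averaged 26.2 ± 2.19 FPKM in KO, 27.6 ± 1.55 in Het and 40.1 ± 2.43 in WT and fell in KO (-0.60 ± 0.07, adjusted p = 6.77e-05).

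Of 17 genes of sterol uptake, traffic and efflux, 8 rose (47.1%) and 4 fell (23.5%) in KO, and 7 rose (41.2%) and 3 fell (17.6%) in Het, against the same shares of all genes (23.3% and 23.8% in KO, 21.7% and 22.1% in Het), with median differences of 0.30 and 0.24 against 0.01 for all genes in both comparisons. Vldlr, a receptor for lipoproteins (gene42999, chromosome 19, 27216489 to 27254231), had 13.8, 12.4 and 11.2 FPKM in KO, 1.37, 1.32, 1.89 and 1.36 FPKM in Het, and 0.459, 0.420, 0.434 and 0.429 FPKM in WT. It was lowest in WT, intermediate in Het and highest in KO without overlap, with differences of 3.22 ± 0.10, adjusted p = 1.54e-09 in KO and 0.79 ± 0.09, adjusted p = 5.15e-05 in Het. Lrp1, an endocytic receptor, averaged 67.2 ± 10.2 FPKM in KO, 49.6 ± 6.18 in Het and 24.5 ± 9.94 in WT and rose in KO (1.49 ± 0.26, adjusted p = 6.66e-04) and in Het (1.06 ± 0.24, adjusted p = 0.00401). Here too WT 1 was lowest (14.8 FPKM) and WT 4 highest (36.7 FPKM), as in the GC-rich members. The lowest KO and Het libraries of Lrp1 had 55.9 and 42.8 FPKM. Mylip, a ligase that marks lipoprotein receptors for degradation, averaged 0.681 ± 0.0612 FPKM in KO, 3.53 ± 0.477 in Het and 2.76 ± 0.273 in WT, with a fall in KO (-1.16 ± 0.10, adjusted p = 3.83e-06) and a rise in Het (0.26 ± 0.09, adjusted p = 0.0363).

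Of 17 further fatty acid genes, 2 rose (11.8%) and 5 fell (29.4%) in KO, and 2 rose (11.8%) and 4 fell (23.5%) in Het, so the shares that fell were near those of all genes (23.8% in KO and 22.1% in Het). Mcat, of mitochondrial fatty acid synthesis, averaged 12.7 ± 1.13 FPKM in KO, 8.82 ± 0.833 in Het and 8.82 ± 1.04 in WT and rose in KO (0.49 ± 0.10, adjusted p = 0.00270). Slc25a1, the mitochondrial citrate carrier, averaged 18.6 ± 0.707 FPKM in KO, 24.96 ± 2.08 in Het and 26.3 ± 3.22 in WT, and Hsd17b12, a reductase of chain elongation, averaged 39.3 ± 0.990 FPKM in KO, 57.0 ± 3.44 in Het and 55.1 ± 6.30 in WT. Both fell in KO (-0.47 and -0.47, adjusted p = 0.00177 and 9.92e-04). Of 13 genes of fatty acid activation and glycerolipid synthesis, 2 rose (15.4%) and 3 fell (23.1%) in KO and 5 rose (38.5%) and 2 fell (15.4%) in Het, with the share that fell in KO again near the 23.8% of all genes. Acsl4, an acyl-CoA synthetase for polyunsaturated chains, averaged 7.58 ± 0.406 FPKM in KO, 19.6 ± 1.59 in Het and 17.4 ± 2.39 in WT and fell in KO (-1.09 ± 0.10, adjusted p = 8.58e-06). Lpin2, a phosphatidate phosphatase, averaged 16.3 ± 1.42 FPKM in KO, 11.3 ± 0.853 in Het and 9.11 ± 0.207 in WT and rose in KO (0.77 ± 0.08, adjusted p = 1.17e-05), and Acsl5, another acyl-CoA synthetase, fell in KO (-0.41 ± 0.10, adjusted p = 0.00509). The adipocyte markers Plin4, Pparg and Fabp4 rose in the same KO libraries in which the fatty acid enzymes fell. So did 4 of the 5 smooth muscle markers that passed the filter and 9 of 10 fibroblast markers, against 23.3% of all genes. In Het, where most sterol genes rose, 9 of 10 fibroblast markers rose as well, against 21.7% of all genes. Among them were Col1a2 (11.5 ± 1.48 FPKM in KO, 193 ± 28.8 in Het and 6.86 ± 1.90 in WT) and Pdgfra (0.964 ± 0.193 FPKM in KO, 4.33 ± 0.299 in Het and 0.212 ± 0.0349 in WT). Of the 5 smooth muscle markers 3 rose and 1 fell in Het, and of the 3 adipocyte markers 1 rose and 1 fell. Of the 3 neural markers that passed the filter, 1 rose and 1 fell in KO, and 1 rose and 2 fell in Het. Of the 2 epithelial markers that did, 1 fell in KO and 1 rose in Het. The part of these markers in the results in KO and in Het was not tested.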

How the data were processed

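RNA-seq of 11 libraries was deposited as FPKM per gene with the 95% interval of each estimate, 1 table per library. Per the submitters' processing notes, the tools were TopHat2 2.1.0, Cufflinks 2.2.1 and Cuffdiff with GRCm38.p4; their settings are not given in the sources used here. FPKM are not counts, so no count test was run.

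FPKM was summed per symbol and scaled by median-of-ratios factors over 13981 genes (0.937 to 1.04; this scaled FPKM is what is printed). Genes with 1 FPKM in at least 3 libraries (14948) entered limma 3.58.1 (R 4.3.3) as log2(FPKM + 1), all libraries in 1 fit with a mean-variance trend, and p-values were adjusted by Benjamini-Hochberg over all of them, with 0.05 as threshold. Errors are the SE of the fit, intervals are ± 2 SE, and ± beside FPKM is the SD. The fit was tested on simulated data. Tables and plots used Python 3.11.15, pandas 2.3.3 and matplotlib 3.10.9. Promoters are from RefSeq, GRCm38.p6; gene coordinates are those of the deposited tables.

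The genes, lists and tests were chosen with earlier results of these data known. Full values per library were set for the largest called changes (up to 8 falls and all rises for KO against WT, 6 each way for the other pairs), the regulators and the most abundant genes of each branch, and of each other list up to 3 called genes with the largest change in KO; some genes the rule takes are not reported here. Alternatives covered pseudocount, filter, scaling, locus choice, trend, libraries used, replicate block, and, chosen after seeing the data, a GC correction and leaving out WT 2 and WT 4 together. Replicate numbers appear in every group, but no label says what they mark, so the main fit had no replicate block. Of 10 same-numbered pairs, 5 deviated together with r over 0.1, and the highest r was 0.352. The highest r of a differently numbered pair was 0.180 (Het 2 with WT 1). Whether same-numbered libraries share an origin was not tested.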

Additional observations from a re-analysis of the deposited data

Results flagged for a closer look

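Insig1 had 41.6 FPKM in Het 4, against 44.8 to 45.5 FPKM in the other Het libraries, a gap of 0.8294 of the range of the group and just past the limit used for a group of 4. It was the only such value among 68 groups of 4 libraries examined, of which chance gives about 1 in 20. Het 4 still lay above every WT library.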

How the results depend on the processing

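Of the calls, 17 of 21 (KO against WT), 14 of 19 (Het against WT), 23 of 25 (KO against Het) and 23 of 27 (Het against the midpoint) held under every alternative. Leaving out 1 library at a time gave 16 to 21 members lower and 1 to 2 higher in KO against WT, 3 to 4 lower and 13 to 17 higher in Het against WT, 22 to 24 lower and 1 to 2 higher in KO against Het, and 3 lower and 21 to 24 higher for Het against the midpoint. The same fits called 2981 to 3920 of all genes lower and 2768 to 4004 higher in KO against WT. In Het against WT they called 2853 to 3662 lower and 2801 to 3648 higher. For KO against Het the counts were 2808 to 3647 lower and 2663 to 3632 higher. For the midpoint they were 2898 to 3736 lower and 2682 to 3626 higher. With 1 library left out, the sterol minus fatty acid gap ranged from -0.25 to -0.071, from 0.41 to 0.50 and from -0.57 to -0.48 in the first 3 comparisons. Without WT 2 and WT 4 together, 4 members were higher in KO than in WT, as were 4217 of all 14681 genes. The gap was then -0.032 in KO against WT and 0.38 in Het against WT. With a pseudocount of 5 the gap was -0.043 in KO against WT and -0.42 in KO against Het. Without scaling, 1 member was higher in KO than in Het, as were 2571 of all 14951 genes. With GC correction Scap was -0.20 in KO against WT, a turn in direction. The causes were not tested.

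The replicate block gave 22 members lower in KO and 17 higher in Het against WT, and 24 lower in KO against Het. Of all 14948 genes it called 3605, 3508 and 3426 in these directions, against 3561, 3243 and 3312 in the main fit. Among the members the block added Tm7sf2 and Stard4 in KO against WT and Acat2 and Mvd in Het against WT. It also added Mvd in KO against Het, and lost no call. Same-numbered pairs correlated between -0.101 and 0.352, and 6 of 11 libraries correlated best with their own number. The share of all called genes that were higher was 49.4% in KO against WT but 37.1% without scaling, 49.5% in Het against WT but 39.9% with upper-quartile scaling, and 49.8% in KO against Het but 36.5% without scaling. A fit on only the libraries compared could not be made for the midpoint. Depth limits the genes under 10 FPKM most, such as Acss2 and Tm7sf2.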

Other observations

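Among the other pathway genes, 4 that were picked after their values were seen had Het apart from both other groups. Idh1, the cytosolic isocitrate dehydrogenase that makes NADPH, averaged 30.8 ± 2.08 FPKM in KO, 66.2 ± 5.19 in Het and 30.0 ± 3.12 in WT (SD, n = 3, 4 and 4; Het against WT 1.12 ± 0.08, adjusted p = 1.92e-06, limma). Insig2, the second INSIG, averaged 21.3 ± 2.41 FPKM in KO, 36.1 ± 0.593 in Het and 20.7 ± 2.197 in WT (0.78 ± 0.08, adjusted p = 2.72e-05). Acsl3, an acyl-CoA synthetase of lipid droplets, averaged 20.5 ± 1.75 FPKM in KO, 35.6 ± 2.21 in Het and 21.7 ± 1.67 in WT (0.69 ± 0.07, adjusted p = 2.67e-05), and Lpin1, a phosphatidate phosphatase, averaged 1.03 ± 0.124 FPKM in KO, 2.89 ± 0.349 in Het and 1.05 ± 0.197 in WT (0.93 ± 0.10, adjusted p = 2.05e-05). Me1, which also makes NADPH, was lowest in the same Het libraries in which Idh1 was highest.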
